A study of Mus musculus with 6 samples.

Results

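Immediate early genes are transcribed within minutes of a stimulus, without new protein synthesis, and here the group was the 10 genes Fos, Fosb, Jun, Junb, Egr1, Ier2, Atf3, Dusp1, Btg2 and Nr4a1. The members were named in advance of this description as a list of symbols, and all 10 were found among the 19848 genes of the deposited RNA table. They were followed across the 10 cell types that the authors had assigned to 13052 brain immune cells. The cells came from whole brains of female C57BL/6 mice and were measured by CITE-seq, in which the transcripts and the surface proteins of a cell, the latter through tagged antibodies, are sequenced together.

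The mice fell into 4 groups. Young control mice were 12 weeks old and received vehicle, and young antibiotic mice of the same age received antibiotics that depleted the gut microbiota. Aged control and aged antibiotic mice were 72 weeks old and were treated in the same 2 ways. Brains were pooled, so that each group had 3 pools (12 in all), each marked by a hashtag, an antibody tag that records the pool of origin. All mice were perfused with buffered saline, and all brains were digested with a papain-based enzyme mix and enriched for mononuclear cells on a Percoll gradient. No sample without dissociation was part of the design, so the response to dissociation and the level in the living brain cannot be told apart. All young pools went through a single droplet well and all aged pools through another, so age and well cannot be told apart. Control pools always carried hashtags 1 to 3 and antibiotic pools hashtags 4 to 6, so hashtag and treatment cannot be told apart either.

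The members belong to a common response but act at different steps of it. Fos, Fosb, Jun and Junb encode subunits that pair to form AP-1, a transcription factor dimer, and Atf3 encodes a stress-induced factor that can pair with Jun proteins. Egr1 encodes a zinc finger factor and Nr4a1 (also called Nur77) an orphan nuclear receptor that is switched on by antigen receptor signalling in lymphocytes and is needed by patrolling, Ly6C-low monocytes. Dusp1 encodes a phosphatase that switches off the MAP kinases, and Btg2 an antiproliferative factor that promotes mRNA deadenylation. The role of Ier2 is less well defined. In microglia, the resident macrophages of the brain, these genes are known to be induced by enzymatic dissociation as well as by activation.

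Promoter sequence was the property examined that did not come from the RNA values. RefSeq promoter windows (GRCm38.p6), of which the 250 bases before the listed start were used, were at hand for 8 of the 10 members, without Egr1 and Ier2. For Nr4a1 the listed start lies inside the annotated gene (chr15:101253902-101274795), so its window precedes an internal start, and the Fosb window overlaps the annotated end of its gene at the 5′ side. The 4 shown belong to Fos, Dusp1, Btg2 and Nr4a1. Fos is the prototype of the group, Dusp1 and Nr4a1 are members on which results below turn, and Dusp1 and Btg2 hold the full cyclic AMP response element. They lie at chr12:85473640-85473889 on the plus strand (Fos), chr17:26508473-26508722 on the minus strand (Dusp1), chr1:134079156-134079405 on the minus strand (Btg2) and chr15:101266596-101266845 on the plus strand (Nr4a1). Each is written 5′ to 3′ on the strand of its gene and ends at the base before that listed start. Capitals mark the cyclic AMP response element TGACGTCA or its short form TGACG, which reads CGTCA when it lies on the opposite strand.
Fos: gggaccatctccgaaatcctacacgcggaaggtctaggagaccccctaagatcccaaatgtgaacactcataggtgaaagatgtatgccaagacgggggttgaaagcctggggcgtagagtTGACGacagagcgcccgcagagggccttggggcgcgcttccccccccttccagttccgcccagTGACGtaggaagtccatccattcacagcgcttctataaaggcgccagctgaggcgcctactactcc
Dusp1: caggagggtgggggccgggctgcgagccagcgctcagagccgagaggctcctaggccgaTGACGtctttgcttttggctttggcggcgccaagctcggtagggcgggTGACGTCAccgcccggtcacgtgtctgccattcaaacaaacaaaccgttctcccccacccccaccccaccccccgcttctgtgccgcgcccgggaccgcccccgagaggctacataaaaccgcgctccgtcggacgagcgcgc
Btg2: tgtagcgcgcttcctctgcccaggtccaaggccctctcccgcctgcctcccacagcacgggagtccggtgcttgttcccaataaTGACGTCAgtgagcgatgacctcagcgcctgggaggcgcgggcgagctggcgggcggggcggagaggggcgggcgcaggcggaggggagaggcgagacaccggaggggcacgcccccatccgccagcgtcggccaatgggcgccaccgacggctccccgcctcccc
Nr4a1: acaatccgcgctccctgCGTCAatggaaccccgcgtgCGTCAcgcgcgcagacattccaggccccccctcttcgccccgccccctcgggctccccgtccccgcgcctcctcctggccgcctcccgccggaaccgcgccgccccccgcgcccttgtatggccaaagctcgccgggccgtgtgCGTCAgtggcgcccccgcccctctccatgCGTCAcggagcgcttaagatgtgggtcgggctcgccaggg

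The short element TGACG, searched on both strands, was found in 7 of the 8 members searched, all but Jun, and in 19.8% of 27025 genes with a window of the same length. In the Fos promoter it lay 129 to 125 and 66 to 62 bases before the start. The full element TGACGTCA, which contains TGACG on both strands, was present in Dusp1 (143 to 136 bases before the start) and Btg2 (166 to 159 bases), against 1.77% of all genes. In the Nr4a1 promoter there were 4 separate copies of the short form. The EGR site GCGNGGGCG was found in Fosb, Btg2 and Nr4a1 and in 5.33% of all genes. The AP-1 site TGANTCA (7.82% of all genes) and the serum response element core, the CArG box (1.62%), were found in 0 of the 8. These matches describe the letters in a short window, and no test of them was made.

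Before the levels are given, some properties of the table bear on how they can be read. The RNA values were whole numbers, but they were corrected values and not raw counts. Raw UMI totals, the number of distinct transcripts read, lay between 5745242 and 13742781 per pool, with a median of 6512 to 7226.5 per cell. Below 1000 raw UMIs, all 10 members were above 0 in every one of 536 cells. From 1000 to under 2000 UMIs (911 cells), 9 members were above 0 in every cell, and from 2000 to under 4000 UMIs (769 cells) 8 were. At 4000 UMIs or more (10836 cells) no member was above 0 in every cell. A value above 0 in a shallow cell is therefore not a detected transcript, and shares of cells are given only for cells of 5000 to 10000 UMIs. Aged pools held more shallow cells in several types. In microglia 13.4% of aged and 8.82% of young cells had under 2000 UMIs, in Ly6CLow cells 31.7% and 4.38%, and in Ly6CHigh cells 54.7% and 1.41%. A total of 59 cell barcodes occurred in both wells, which touches 118 cells, 10 of them microglia. None of these barcode pairs had equal UMI totals, and 36 of them carried the same cell type.

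For several types, the markers named here stood where the authors' labels place them. P2ry12 (10.6 per cell) and Tmem119 (8.09) were found in the microglia, and Mrc1 (6.19) and Pf4 (8.62) in the border-associated macrophages (BAM). Cd8a (4.06) marked the CD8+ cells, Cd79a (12.3) the B cells and S100a8 (746) the Ly6C+Ly6G+ cells. Ly6c2 (9.70) was highest in the Ly6CHigh cells and Cd4 (1.04) in the CD4+ cells. Ly6CLow cells were less clear. Their markers Ace, Treml4, Spn, Cd300e and Eno3 averaged only 0.394 (Cd300e) to 1.05 (Spn) there. The Ly6CHigh marker Ccr2 (2.99) and the NK cell gene Gzma (5.85) were also present in Ly6CLow cells. In the cells labelled ILCs, Gata3 (1.55), an ILC factor, Ncr1 (2.40), an NK cell receptor, and the T cell gene Cd3e (0.694) were all present. The 9403 microglia gave 475 to 1186 cells per pool.

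Expression of 9 of the 10 members was highest in microglia or BAM, the 2 macrophage types of the brain, and Nr4a1 was the exception. Levels are mean corrected values per cell, given as the mean ± SD over pools with at least 10 cells of the type. The authors' cell types rest on the same cells, so levels by type are described without a test. Neighbours in the order of types were held apart only where their ranges of mean ± 1 SD did not overlap. The count of 9 was the same for mean levels within cells of 5000 to 10000 UMIs. By share of cells above 0 in that window, the order differed for some of these members. Ier2 was above 0 in 97.7% of Ly6CHigh and of Ly6C+Ly6G+ cells, against 94.7% of microglia and 93.5% of BAM. Atf3 was above 0 in 93.2% of Ly6CHigh cells, against 92.4% of microglia and 91.0% of BAM. As a share of all RNA values, the 10 members together made up 4.36% in microglia and 3.73% in BAM. That share was 1.6% in Ly6CLow, 1.31% in Ly6C+Ly6G+ and 1.15% in Ly6CHigh cells. In lymphocytes it lay between 0.555% (CD8+) and 1.15% (ILCs).

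Fos was 61.65 ± 6.131 in BAM and 54.81 ± 3.307 in microglia (SD, n = 12 pools each). BAM lay above microglia in 10 of the 12 pools, although their ranges of mean ± 1 SD overlapped, and Ly6CLow cells, the next type, were far lower at 18.87. CD8+ cells had the lowest Fos, 5.209. Fosb followed the same order, with 11.37 ± 1.383 in BAM, 9.902 ± 1.497 in microglia, 5.826 in Ly6CLow and 1.944 in CD8+ cells. Jun was 76.06 ± 7.552 in microglia and 63.2 ± 11.24 in BAM, with BAM above microglia in 3 of 12 pools. Jun fell off to 14.25 in Ly6CLow and 4.385 in CD8+ cells.

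Junb, the AP-1 subunit, was 43.61 ± 2.726 in microglia and 27.34 ± 4.097 in BAM, and in no pool was it higher in BAM. In lymphocytes it was 32.75 ± 14.65 in ILCs (SD, n = 11 pools), overlapping microglia, and 13.66 in CD8+ cells. ILCs exceeded microglia in 3 pools, and the wide SD of Junb in ILCs went with age, as given below. Btg2 was likewise higher in microglia (29.49 ± 2.089) than in BAM (17.52 ± 3.198) in every pool. Egr1 was 20.98 ± 1.632 in microglia, 15.41 ± 3.892 in BAM and 1.447 in CD8+ cells. Ier2 was 16.12 ± 1.975 in microglia and 12.72 ± 2.836 in BAM, and Atf3 was 23.89 ± 3.145 and 22.31 ± 4.247, so that the ranges of these 2 types overlapped for both genes.

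Dusp1, the MAP kinase phosphatase, was the member that stood higher in BAM in all 12 pools while being high in both, at 32.03 ± 3.488 in BAM and 21.94 ± 2.508 in microglia. Ly6CLow cells had 12.66 and CD8+ cells 3.041. Nr4a1 reversed the picture. It was 5.991 ± 1.502 in Ly6C+Ly6G+ cells (n = 9 pools), 5.731 ± 1.965 in Ly6CHigh cells (n = 11) and 5.568 ± 0.8554 in Ly6CLow cells (n = 12), and these 3 types could not be ordered. ILCs, the next type at 3.454 ± 2.523 (n = 11), overlapped the Ly6CLow cells. Microglia had 1.17 ± 0.2214, the second lowest Nr4a1 level, overlapping that of the CD8+ cells at 0.9682 ± 0.5717. BAM had 2.294 ± 0.5483 and exceeded microglia in all 12 pools.

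**Figure D1:**
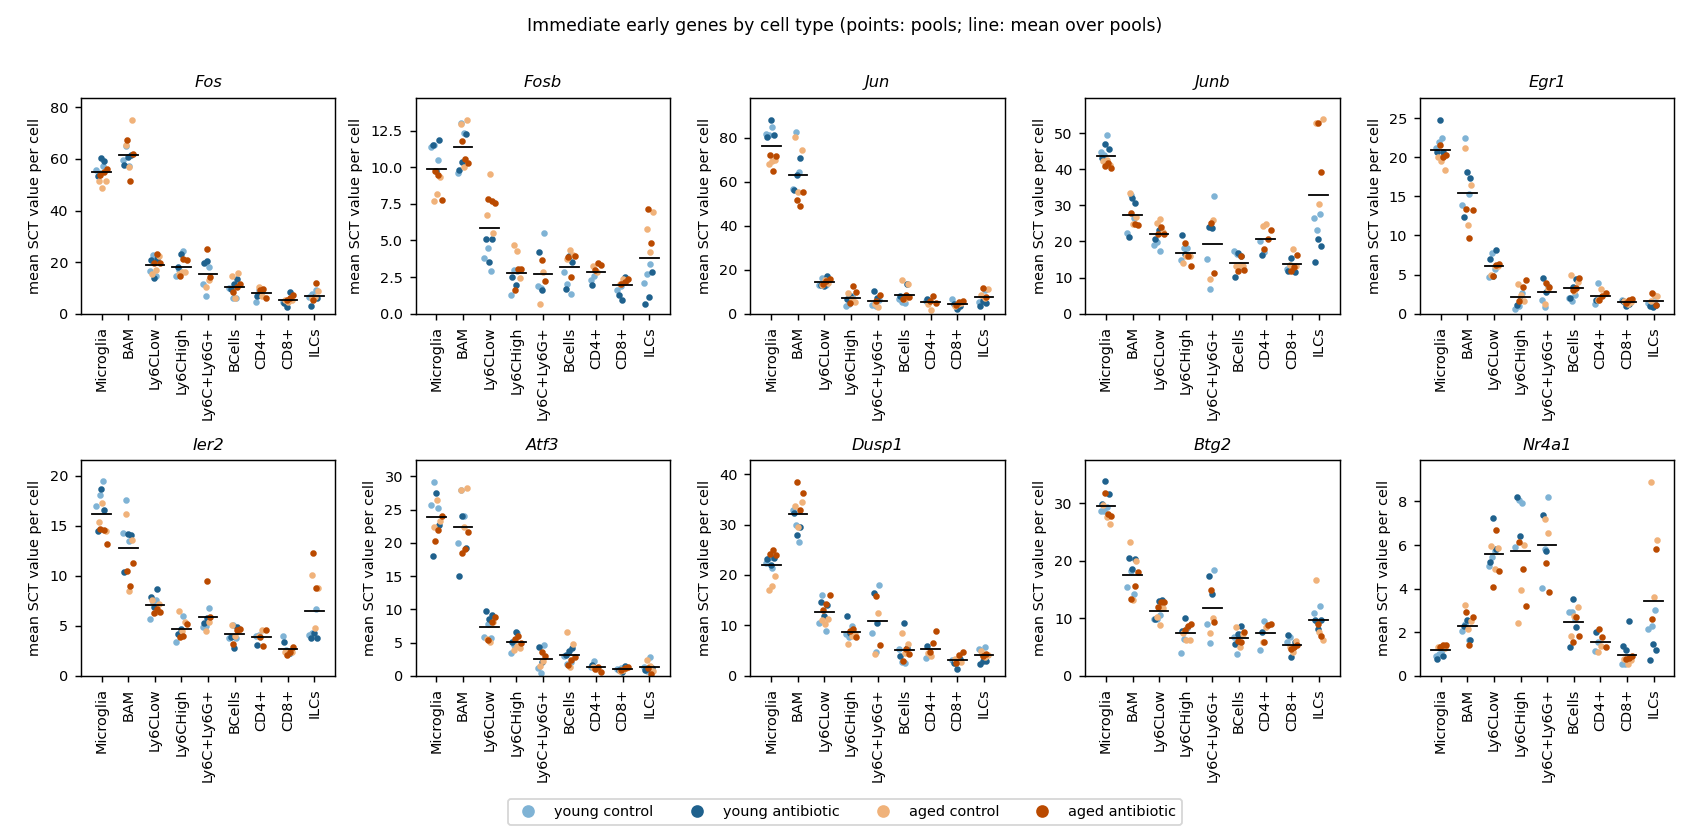
Mean corrected RNA value per cell of each of the 10 members in each cell type; points are pools with at least 10 cells of the type, coloured by group, and lines are means over pools. Microglia or BAM have the highest mean for 9 members. For Nr4a1 the 3 Ly6C-marked types have the highest means, with ILC pools overlapping them, and microglia lie at 1.17.

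Free RNA from broken cells gives low values in cells that do not express a gene, and 6 microglial markers served as a yardstick for it. In CD8+ cells those markers stood at 2.41 to 3.63% of their microglial level (median 2.93%), while the 10 members stood at 4.3 to 70.1% (median 15.3%). In ILCs the markers stood at 3.11 to 4.57% and the members at 5.49 to 295% (median 24.7%). The highest value in both types was that of Nr4a1, which was low in microglia (1.17). For Nr4a1 a microglial yardstick therefore does not apply. Atf3, at 1.002 in CD8+ cells the lowest of the members relative to its microglial level, was near that yardstick, so its presence there is not a clear detection. Elsewhere the markers stood higher. They stood at 19.2 to 61.5% in BAM, where the lowest member stood at 59.5%. In Ly6CLow cells these values were 5.02 to 19.9% and 18.8%. They were 6.05 to 17.0% and 9.95% in Ly6CHigh cells, and 4.33 to 8.98% and 7.26% in Ly6C+Ly6G+ cells. In these types the lowest member lay inside the marker range, so this yardstick does not show its presence.

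Within microglia the members were expressed by nearly all cells and rose and fell together from cell to cell, again apart from Nr4a1. In the 6243 microglia with 5000 to 10000 UMIs, a value above 0 was found in 99.2% of cells for Fos, 99.9% for Jun, 99.7% for Junb and 99.6% for Btg2. The share was 98.0% for Dusp1, 97.4% for Egr1, 94.7% for Ier2, 92.4% for Atf3 and 92.0% for Fosb. Nr4a1 was above 0 in 34.8%. All 10 members were above 0 in 30.1% of these cells, 9 in 55.5% and 8 in 9.82%.

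Among the 36 pairs of members without Nr4a1, the median over pools of Pearson's r of log2(value + 1) across microglia of a pool had a median of 0.487, with a range of 0.246 to 0.656. The cells share library and depth, so r is given as a description over 475 to 1186 cells per pool. The strongest pairs were Fos with Egr1 (0.656), Junb with Egr1 (0.634), Fos with Junb (0.627) and Jun with Junb (0.619). Restricted to 5000 to 10000 UMIs, the median of the 36 pairs was 0.431. The 9 pairs with Nr4a1 had a median of 0.11. Against the mean of the other members, Egr1 (0.755), Fos (0.747) and Junb (0.732) followed the group most closely, and Atf3 (0.551) and Fosb (0.403) least closely apart from Nr4a1 (0.155). The mean of the members had an r of 0.192 to 0.367 with log2 of the raw UMI total, depending on the pool.

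Of the 10 other genes whose cell-to-cell pattern was most like the members' mean, among 8736 genes, 8 were on a list of 41 other early response genes and are named here. They were headed by Zfp36 (r = 0.734), which encodes a protein that destabilises cytokine mRNAs. Next came Ier5 (0.672), the AP-1 gene Jund (0.659) and Rhob (0.629). Nfkbia (0.572), which encodes an inhibitor of NF-κB, Mcl1 (0.552), Nfkbiz (0.537) and Klf6 (0.511) completed them. The median over all genes was 0.03.

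Shallow microglia differed in level by member. Below 2000 UMIs, Fos was 23.43 against 58.78 in deeper cells, Junb 30.66 against 45.22, Atf3 12.25 against 25.32 and Dusp1 12.32 against 23.16, each lower in all 12 pools. Fosb went the other way, 13.15 against 9.504, and Btg2 (28.77 against 29.6) and Nr4a1 (1.268 against 1.158) hardly differed. Results by age are therefore also given for deeper cells where that changed the call.

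**Figure D2:**
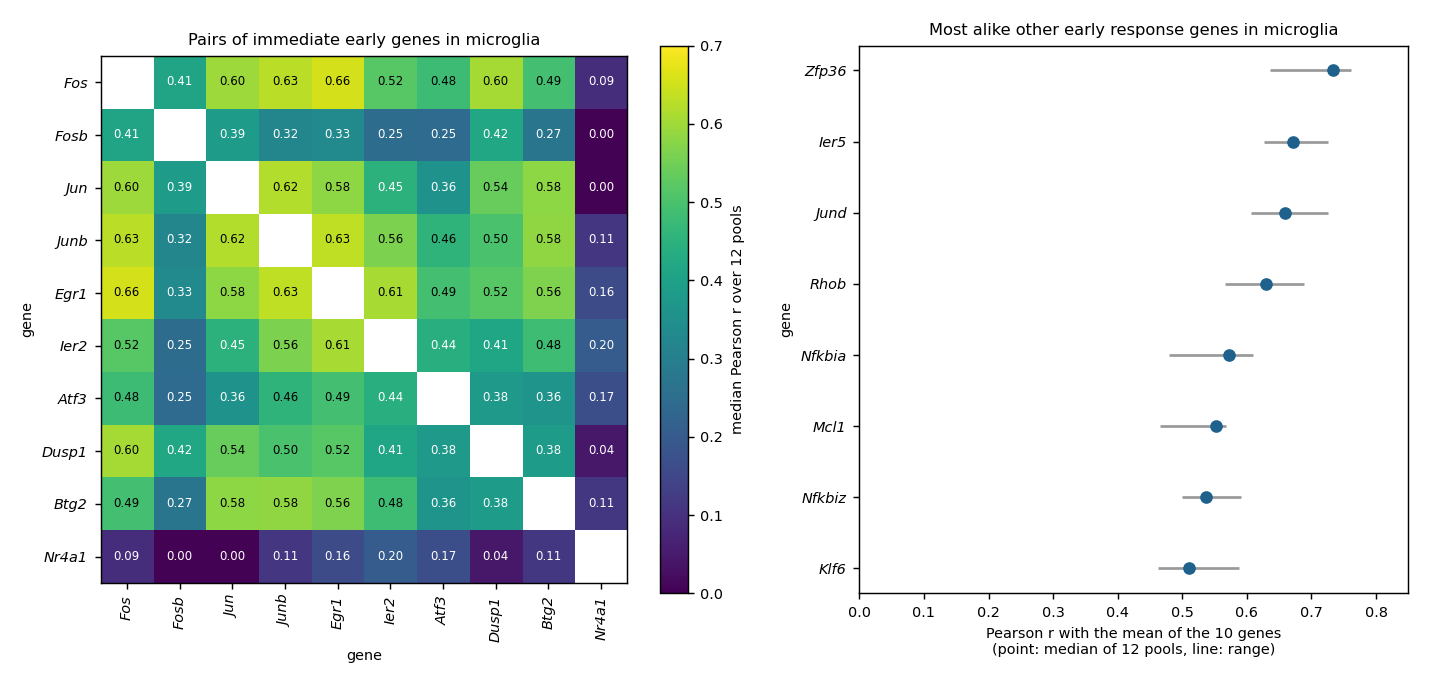
Left, median over the 12 pools of Pearson's r across microglia between each pair of members; right, r with the mean of the members for the 8 most alike genes from the list of other early response genes (point, median; line, range over pools). Pairs with Nr4a1 lie near 0.11 and the other pairs between 0.246 and 0.656, and Zfp36 heads the other genes at 0.734.

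In microglia, aged pools had lower Fosb, Jun and Ier2 and higher Nr4a1 than young pools, averaged over both treatments. Group comparisons used limma on log2(mean value per cell + 0.05), and p-values were adjusted by Benjamini-Hochberg over all 8759 genes tested. A call means an adjusted p under 0.05. A fold on this scale understates the change of genes with low values. Of all genes 9.86% were called between ages (659 higher and 205 lower when aged), and 4 of the 10 members were. Over all 10 members the median log2 change was -0.121 and 9 lay below 0, against a median of 0.0196 for all genes.

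Fosb was 11.39, 11.54 and 10.49 in the 3 young control pools and 11.53, 9.773 and 11.86 in the young antibiotic pools. In aged control pools it was 7.670, 8.194 and 9.358, and in aged antibiotic pools 9.746, 9.507 and 7.771. The highest aged pool (9.746) lay just under the lowest young pool (9.773), so the ages did not overlap. The log2 change with age was -0.35 (SE 0.0667, limma adjusted p = 0.00179), and it stayed called in all 23 alternative settings. In control pools alone Fosb changed by -0.41 (SE 0.0943, limma adjusted p = 0.0233), one of 2 members among the 2.66% of genes called there. That call was lost in 6 of the 23 alternatives, with adjusted p up to 0.137.

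Jun was 81.44, 81.35 and 84.64 in young control and 80.29, 88.05 and 81.15 in young antibiotic pools. It was 67.81, 69.36 and 69.90 in aged control and 72.17, 64.96 and 71.59 in aged antibiotic pools, all below every young pool. Its log2 change was -0.26 (SE 0.0653, limma adjusted p = 0.0155), and the call was lost with no filter on low values (adjusted p = 0.178). Ier2 overlapped between ages. Young mice had 16.99, 18.05 and 19.43 with vehicle and 14.45, 18.61 and 16.57 with antibiotics, and aged mice had 15.31, 17.23 and 14.46 with vehicle and 14.63, 14.53 and 13.15 with antibiotics. The change of Ier2 was -0.22 (SE 0.0648, limma adjusted p = 0.0386), and 12 of the 23 alternatives lost it. In cells of at least 2000 UMIs its adjusted p was 0.0714.

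Nr4a1 moved the opposite way. It was 0.9003, 1.016 and 1.167 in young control and 0.7603, 1.327 and 0.8879 in young antibiotic pools, against 1.315, 1.299 and 1.252 in aged control and 1.329, 1.394 and 1.396 in aged antibiotic pools. Only the second young antibiotic pool reached the aged range. The log2 change was 0.40 (SE 0.0905, limma adjusted p = 0.00681), and within antibiotic pools, where 6.15% of genes were called, it was 0.49 (SE 0.128, limma adjusted p = 0.0284). A robust prior variance (adjusted p = 0.0851) or no filter on low values (0.0593) ended the first call, and 9 of 23 alternatives ended the other. One of them was the limit to cells of 5000 to 10000 UMIs, with a change of 0.41 in antibiotic pools (limma adjusted p = 0.152). The share of microglia of 5000 to 10000 UMIs with Nr4a1 above 0 was 33.3% with vehicle and 31.9% with antibiotics in young mice, and 38.2% and 35.8% in aged mice. For Fosb these shares were 94.9% and 94.5% in young and 88.0% and 88.1% in aged mice.

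The remaining members did not pass the test between ages. Junb and Egr1 each changed by -0.14 (limma adjusted p = 0.149 and 0.148) and Fos by -0.11 (0.325). Dusp1 changed by -0.11 (0.246), Atf3 by -0.09 (0.614) and Btg2 by -0.09 (0.425). Over the 12 pools Fos ranged from 48.9 to 60.3, Junb from 40.4 to 49.5, Egr1 from 18.4 to 24.8, Atf3 from 17.96 to 29.13 and Btg2 from 26.5 to 33.8. Among the young antibiotic pools, pool 1 was the lowest of the 3 for 8 members and pool 2 the highest for 8.

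Dusp1 was the member that changed with antibiotics in microglia, and it did so in aged mice. In aged control pools it was 17.03, 17.83 and 19.76, and in aged antibiotic pools 24.07, 24.85 and 23.97. In young control pools it was 22.37, 23.35 and 21.40, and in young antibiotic pools 23.20, 21.96 and 23.44. The aged control pools lay below all the other 9, and the aged antibiotic pools above them all. The log2 change with antibiotics in aged mice was 0.42 (SE 0.0738, limma adjusted p = 0.00413), where 3.23% of genes were called. It stayed called in all 23 alternatives, with changes of 0.37 to 0.48 and adjusted p of 0.000965 to 0.0393.

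Over both ages the antibiotic change of Dusp1 was 0.22 (SE 0.0522, limma adjusted p = 0.0175), the only member among the 5.4% of genes called. That call was lost in 5 of the 23 alternatives. These were no filter on low values (adjusted p = 0.0826), the mean of log values (0.0685), and leaving out young control pool 3 (0.0503), aged control pool 1 (0.0511) or aged control pool 2 (0.0513). In young mice no member passed among the 0.137% of genes called, and 1 had an unadjusted p under 0.05, Atf3 at -0.25 (limma adjusted p = 0.469). The antibiotic effect on Dusp1 was larger in aged than in young mice by 0.39 (SE 0.104), with an unadjusted limma p of 0.0016 and an adjusted p of 0.378. No gene was called for that difference (0.0%), while 579 had an unadjusted p under 0.05 by limma. Aged control pools also had less Dusp1 than young control pools, by a log2 change of -0.30 (SE 0.0738, limma adjusted p = 0.0345). This comparison shares the aged control pools with the one above, and 7 of its 23 alternatives lost the call. In cells of 5000 to 10000 UMIs the change was -0.26 (limma adjusted p = 0.0709), and the call was lost.

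**Figure D3:**
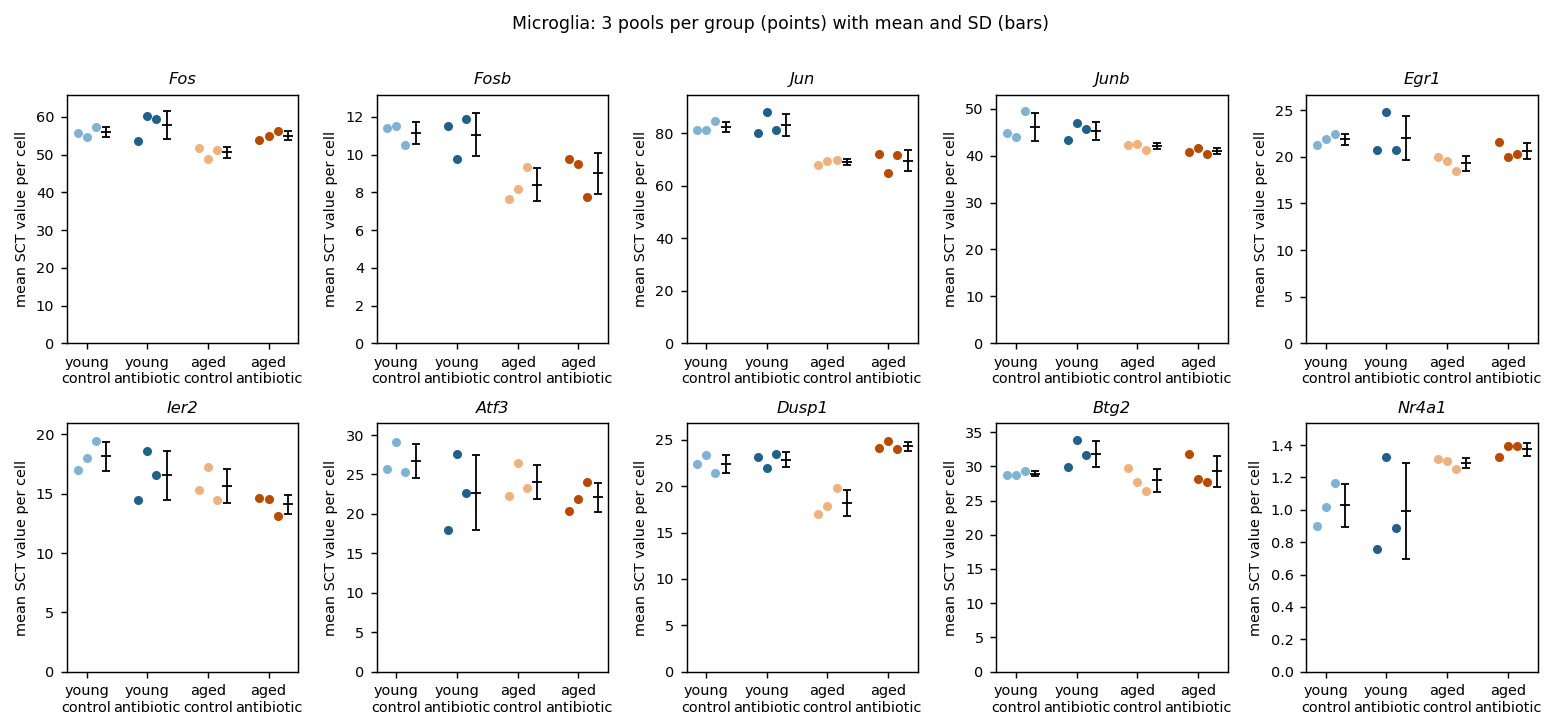
Mean corrected RNA value per microglial cell for each member in each pool, by group (points), with the mean and SD of the group as bars. For Dusp1 the 3 aged control pools (17.03 to 19.76) lie below all other pools; for Fosb and Jun the 6 aged pools lie below the 6 young pools.

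Transcripts of other cells were also measured in the microglia. The summed level of the 6 Ly6C+Ly6G+ markers in microglia was 2.237 to 6.294 in the vehicle pools and 2.325 to 20.26 in the antibiotic pools of young mice, and 0.6257 to 0.7075 and 1.065 to 3.012 in those of aged mice. It was thus lowest in the aged control pools, as Dusp1 was. All 6 of these markers were in the table, with S100a9 at 2.562 and Ly6g, the defining surface marker, at 0.01393 over microglia, and their part in the result was not tested. The summed microglial markers were 112.9 to 120.2 in young and 99.29 to 109.9 in aged pools.

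**Figure D4:**
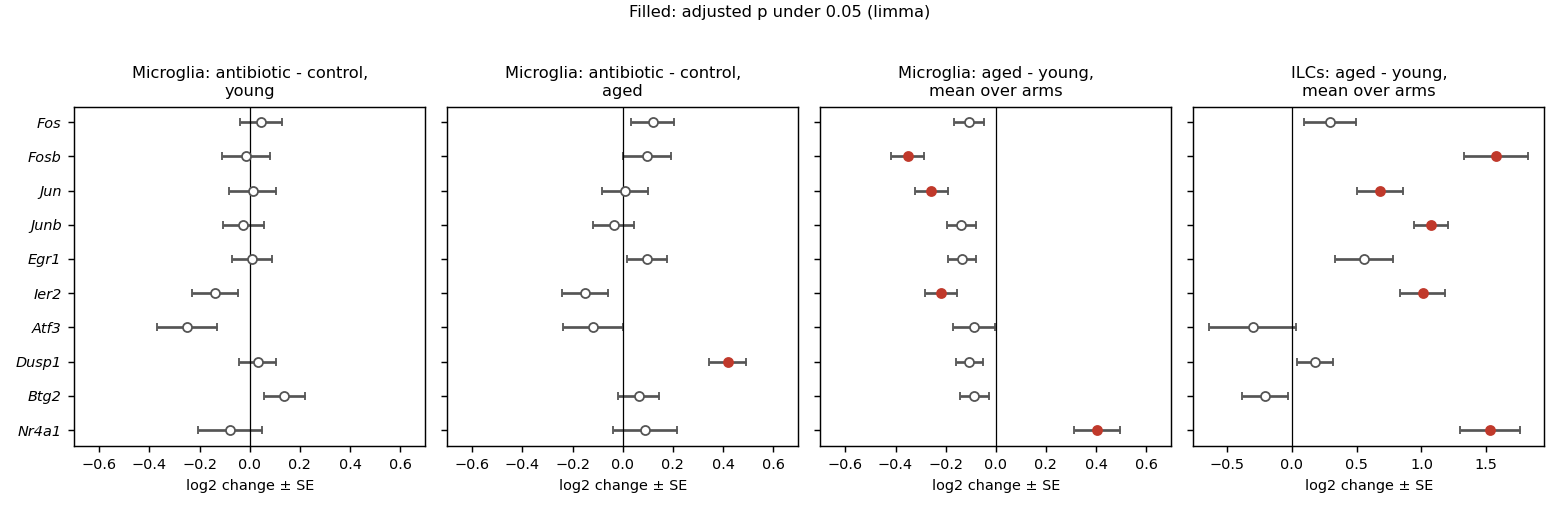
Fitted log2 change of each member, with its standard error, for antibiotics in young and aged microglia and for age in microglia and ILCs; filled points have an adjusted p under 0.05. In microglia the filled points are Dusp1 for antibiotics in aged mice and Fosb, Jun, Ier2 and Nr4a1 for age.

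The other genes of the response were read from 5 lists in the same fits. Activation cytokines and chemokines rose with age in microglia while most members did not, with 9 of 13 tested higher and 0 lower over both treatments (median log2 change 0.611). Tnf rose by 0.99 (SE 0.129, limma adjusted p = 4.73e-05), the interferon-induced chemokine Cxcl10 by 0.86 and the monocyte chemoattractant Ccl2 by 0.80. In control pools alone 4 rose, led by Ccl2 (0.90), Ccl7 (0.89) and Tnf (0.80), and in antibiotic pools 6 rose, led by Tnf (1.18), Il1b (0.79) and Cxcl16 (0.74). Other early response genes were split between ages, with 8 of 35 higher and 6 lower (median 0.0934). Egr3 (0.60), Fosl2 (0.46) and Ier3 (0.40) rose, whereas the Krüppel-like factors Klf2 (-0.54), Klf4 (-0.53) and Klf6 (-0.28) fell. In control pools alone Egr3 (0.69), Egr2 (0.47), Ier3 (0.42) and Fosl2 (0.41) rose, and Klf4 (-0.72) and Klf2 (-0.59) fell. In antibiotic pools Sik1 (0.61), Fosl2 (0.52), Klf10 (0.52) and the AP-1 gene Jdp2 (0.69) rose, and Klf2 (-0.49) and Klf4 (-0.35) fell.

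Heat shock genes, which encode chaperones, gave 0 higher and 4 lower of 13 with age (median -0.12), with Hspb1 at -0.58 and Dnajb1 and Hspa1a both at -0.36. In antibiotic pools 3 were lower when aged, Hspa5 (-0.60), Dnajb1 (-0.54) and Hspa8 (-0.42). Among other AP-1 genes and partners, 1 rose (Fosl2) and 1 fell (Jund, -0.20) of 13 tested. Among 22 kinases and serum response or CREB factors upstream of the members, 1 fell, the p38 kinase gene Mapk14 (-0.19). The list medians were 0.0163 and 0.0237, close to the 0.0196 of all genes. Fosl2 and Jund are on 2 of the lists.

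With antibiotics in aged mice, 5 of the 13 heat shock genes fell, among them Hspa5 (-0.75), Hsph1 (-0.67) and Dnaja1 (-0.40), and none rose. Of the other early genes 3 rose with Dusp1, namely Sik1 (0.42), Zfp36l2 (0.42) and the clock gene Per1 (0.38). Jdp2 (0.81), an AP-1 repressor, rose, while Batf3 (-0.35) and Creb1 (-0.45), the factor that binds the cyclic AMP response element, fell. No cytokine of the list was called. Averaged over ages, 2 cytokines fell with antibiotics, Il1a (-0.45) and Cxcl16 (-0.25), as did 4 heat shock genes, led by Hspa5 (-0.50), Hsph1 (-0.38) and Dnaja1 (-0.26). Of the other early genes Trib1 (-0.51) and Gadd45b (-0.37) fell and Zfp36l2 (0.28) rose, and Batf3 (-0.35) and Maf (-0.17) fell. Upstream, Creb1 (-0.39), Map2k1 (-0.27) and Rps6ka3 (-0.25) fell and Mapk9 (0.23) rose. In young mice and for the difference between ages, 0 genes of any list were called by limma.

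In Ly6CLow cells, with 634 cells and all 12 pools, Fosb was higher with age in the whole set of cells and did not differ among deeper cells. Young mice had 3.776, 4.512 and 2.94 with vehicle and 5.116, 3.545 and 5.102 with antibiotics, against 6.771, 9.556 and 5.535 and 7.833, 7.681 and 7.54 in aged mice. Every aged pool lay above every young pool. The log2 change was 0.85 (SE 0.141, limma adjusted p = 0.00147), the only member among the 7.38% of genes called. In control pools alone it was 0.94 (SE 0.199, limma adjusted p = 0.0334), where 0.755% of genes were called.

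The difference lay in the shallow cells. In aged Ly6CLow cells Fosb was 14.3 in the 114 cells under 2000 UMIs and 4.285 in the other 246, while in young ones it was 4.083 in 12 cells and 4.156 in 262. In cells of at least 2000 UMIs the pools were 3.821, 4.757 and 2.918 in young control and 4.738, 3.548 and 5.255 in young antibiotic mice. The aged control pools were then 2.238, 5.047 and 4.179 and the aged antibiotic pools 4.438, 4.383 and 4.5. The ages overlapped fully, with a log2 change of -0.03 (limma adjusted p = 0.983). No member was called for antibiotics in Ly6CLow cells, where 0.0% of genes were. For age within antibiotic pools (1.95% called) none passed either.

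In ILCs 5 members were called higher with age. Over 11 pools, 3.11% of 8335 genes were called, and the median of the 10 members was 0.619 against -0.100 for all genes. The aged antibiotic pool 2, with 5 cells, was left out of these fits. The pools used held 11 to 87 cells, so each value rests on few cells.

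Junb in ILCs was 26.41, 23.16 and 27.75 in young control and 14.28, 20.67 and 18.67 in young antibiotic pools. It was 52.82, 30.41 and 54.00 in aged control pools and 52.81 and 39.24 in the aged antibiotic pools used. All aged pools lay above all young pools, with a log2 change of 1.07 (SE 0.130, limma adjusted p = 1.89e-05). In control pools alone, where 0.912% of genes were called, Junb changed by 0.78 (SE 0.174, limma adjusted p = 0.0275). That call was lost in 7 of 14 alternatives. The adjusted p became 0.218 once the pool of 5 cells was included. It was 0.0952, 0.116 and 0.0585 without young control pool 1, 2 or 3, 0.0519 without young antibiotic pool 3, and 0.133 and 0.163 without aged control pool 1 or 3.

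Fosb in ILCs was 2.125, 2.68 and 3.375 with vehicle and 0.6667, 1.167 and 2.867 with antibiotics in young mice. In aged mice it was 5.818, 4.195 and 6.935 with vehicle and 7.125 and 4.84 with antibiotics. Here too the ages did not overlap, and the change was 1.57 (SE 0.250, limma adjusted p = 0.000418). Few ILCs were shallow, 2.29% of aged and 1.94% of young cells, but their Fosb values were not alike. The 4 shallow aged cells averaged 22.5, against 5.064 in the other 171. In aged antibiotic pool 1 Fosb was 7.125 over 16 cells and 4.067 over the 15 cells of at least 2000 UMIs. Among cells of that depth the aged pools used had 4.067 to 6.935 and the young pools 0.6471 to 3.375. Ier2 was 4.031, 4.28 and 6.656 with vehicle and 3.722, 4.222 and 3.8 with antibiotics in young mice, and 10.09, 4.816 and 8.742, then 12.31 and 8.72, in the corresponding aged pools. Its change was 1.01 (SE 0.172, limma adjusted p = 0.000882), with aged control pool 2 inside the young range.

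Nr4a1 in ILCs was 2.156, 2.28 and 3.031 with vehicle and 0.7222, 1.444 and 1.167 with antibiotics in young mice. In aged mice it was 8.909, 3.632 and 6.226 with vehicle and 2.625 and 5.80 with antibiotics. It rose by 1.53 (SE 0.231, limma adjusted p = 0.000218), with aged antibiotic pool 1 inside the young range. Jun was 3.5 to 10.88 in young pools and 7.253 to 11.44 in aged pools, which overlapped. It rose by 0.68 (SE 0.178, limma adjusted p = 0.0323), a call lost in 6 of 14 alternatives. Egr1 (0.55), Fos (0.29), Dusp1 (0.18), Btg2 (-0.21) and Atf3 (-0.30) did not pass. Within antibiotic pools, where 1.44% of genes were called, the called members were Junb (1.36), Ier2 (1.40), Nr4a1 (1.82) and Fosb (2.12). No member was called by limma for antibiotics in ILCs, in young (0.06% of genes called) or aged mice (0.084%), over both ages (0.012%) or for the difference between ages (0.048%).

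Markers of the ILC, NK and T cell lineages also differed between these pools. The summed level of 5 ILC markers was 4.062 to 4.92 with vehicle and 1.889 to 4.0 with antibiotics in young mice, and 7.161 to 14.0 and 11.48 to 14.44 in aged mice. The sum of 5 NK markers was 24.2 to 48.62 and 26.78 to 32.67 in young mice, and 2.091 to 11.48 and 30.94 to 34.8 in aged mice. The granzyme gene Gzma made up most of that sum in the antibiotic pools, with a mean of 19.82 in young and 26.79 in aged mice. There Ncr1 (3.478 in young and 1.765 in aged), Klrb1c (3.367 and 1.735) and Eomes (1.03 and 0.4075) were lower when aged. In control pools Ncr1 was 3.827 and 1.217. The T cell gene Cd3e averaged 0.6939 over the cells labelled ILCs, against 3.441 in CD8+ cells. By pool it was 0.125 to 0.88 in young control and 0.2222 to 0.4 in young antibiotic mice. Aged control pools ranged from 0.0 to 2.011, and the aged antibiotic pools used had 0.0. The Ly6C+Ly6G+ marker sum was 1.84 to 52.34 in young control, 2.0 to 2.278 in young antibiotic and 0.4 to 0.7742 in aged pools, and Ly6g was listed at 0.0 in ILCs. The part of these markers in the result was not tested. When each pool's ILC change was set against its microglia, no member's difference was among the 0.432% of 7413 genes called. The nearest was Fosb (1.95, limma adjusted p = 0.0573), then Junb (1.22, 0.0854) and Nr4a1 (1.13, 0.0910).

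**Figure D5:**
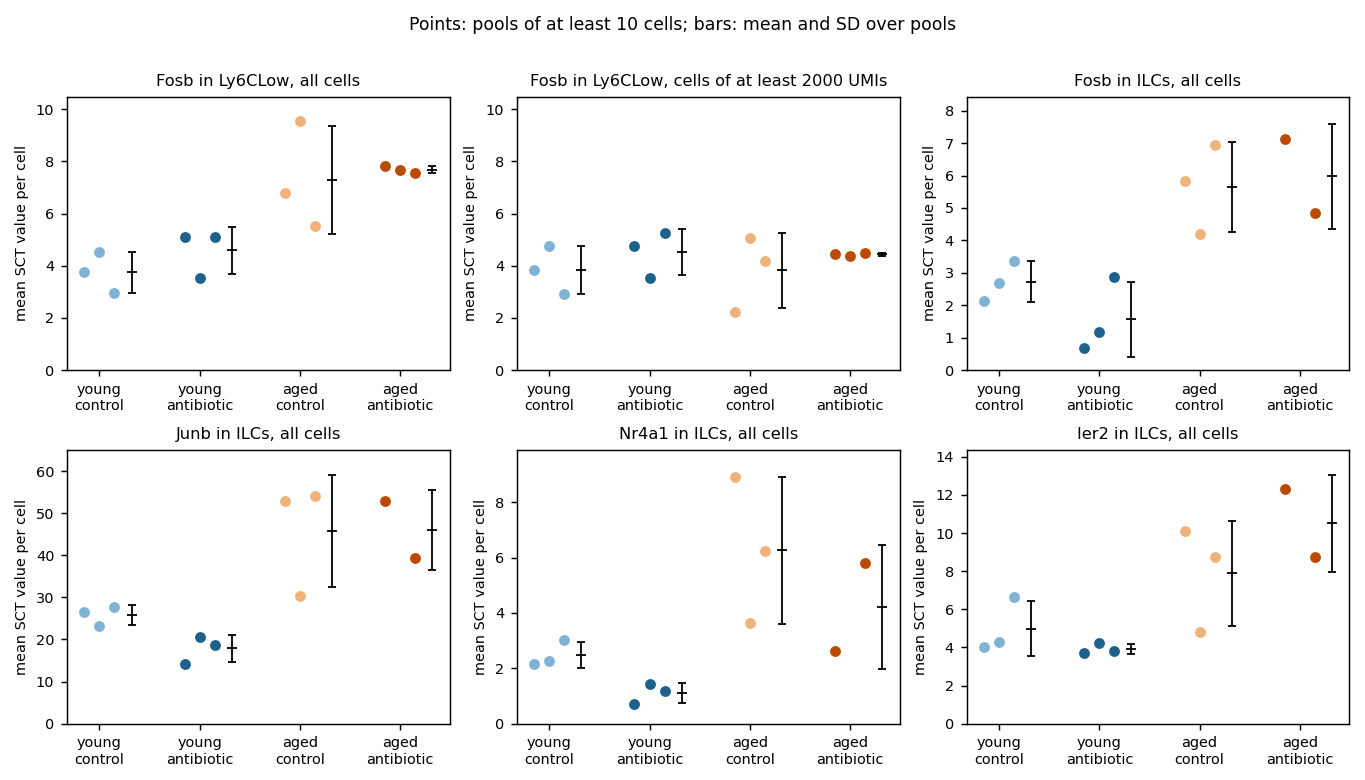
Pool values of Fosb in Ly6CLow cells, over all cells and over cells of at least 2000 UMIs, and of Fosb, Junb, Nr4a1 and Ier2 in ILCs, by group, with the mean and SD over pools of at least 10 cells as bars. The ages separate for Fosb in all Ly6CLow cells and overlap in the deeper ones; Junb in ILCs is higher in all aged than in all young pools.

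In CD8+ cells, where young control pool 2 with 5 cells was left out, Nr4a1 was the only member called. It was 0.5484 and 0.5294 in the young control pools used and 1.35, 1.2 and 2.5 in young antibiotic pools, which did not overlap. The log2 change was 1.48 (SE 0.273, limma adjusted p = 0.0493), where 0.145% of genes were called. In aged mice Nr4a1 was 0.75, 0.5376 and 0.7438 in control and 0.7459, 0.8364 and 0.9083 in antibiotic pools. The difference between the ages in the antibiotic effect was -1.20 (limma adjusted p = 0.454). In aged mice and over both ages, each with 0.0121% of genes called, no member passed for antibiotics. Nor did one for age, with 0.241% of genes called in control pools, 0.664% in antibiotic pools and 1.79% over both treatments. The call in young mice was lost in 8 of 14 alternatives, among them the inclusion of the pool of 5 cells (adjusted p = 0.0559).

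In BAM, B cells, Ly6CHigh and Ly6C+Ly6G+ cells, 0 of 280 member tests over 28 comparisons were called by limma. The lowest limma adjusted p was 0.0819, for Nr4a1 with age in Ly6CHigh cells (log2 change -0.78, SE 0.217). Depth differed there, with 54.7% of aged and 1.41% of young cells under 2000 UMIs. Set against microglia, the Nr4a1 age change was -1.295 over all cells (limma adjusted p = 0.0748). It was -0.634 in cells of at least 2000 UMIs (limma adjusted p = 0.792). At that depth 3 genes were called for age over both treatments in Ly6CHigh cells, against 102 over all cells. The comparisons of a type reuse the same pools, so these tests are not independent. The share of all genes called was 0.0% to 1.25% in Ly6CHigh and 0.0% to 0.0289% in Ly6C+Ly6G+ cells, where 0.0145% were called for antibiotics in aged mice. In BAM it was 0.0224% (young), 0.123% (aged) and 0.0559% (both) for antibiotics, and 0.0447% (control), 0.0783% (antibiotic) and 0.145% (both) for age. In B cells it was 0.0% for antibiotics and 0.0596% (control), 0.0119% (antibiotic) and 0.358% (both) for age. The fits left out young antibiotic pool 2 for Ly6CHigh, and young antibiotic pool 2, aged control pool 1 and aged antibiotic pool 2 for Ly6C+Ly6G+ cells. CD4+ and NK cells had too few cells per pool to be tested.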

How the data were processed

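Brain immune cells of 12 pools, 3 in each of 4 groups, were measured by CITE-seq. Per the submitters' processing notes, Cell Ranger 3.0.2, Seurat 3.0.1 and mm10 were used; the cell filters and the terms of the correction are not given in the sources used here. The RNA values the authors deposited are a score, the corrected UMI value of SCTransform, and they added up, cell by cell, to the metadata's SCT total rather than its raw UMI total. Raw UMI counts per cell, hashtag calls and cell types came from the metadata the authors deposited, in which all 13052 cells were singlets; 35 metadata columns were not used.

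Some genes are not reported here. The members and the gene lists were chosen with earlier results of these data known. Values were averaged per cell type and pool on a log2 scale with a pseudocount of 0.05. Genes whose pool mean reached 0.05 were tested with limma 3.58.1 (R 4.3.3, trended prior variance), Benjamini-Hochberg adjusted within each contrast, after a test on simulated data. Microglia and Ly6CLow cells needed 20 cells in every pool, other types 10 per pool and 2 pools per group. A pool combines brains of several mice, so p-values measure the spread between pools. All members are named, with those of the 10 genes most like them in microglia that are on the list of other early response genes and, from each of 5 lists and each contrast in microglia, up to 3 called genes per direction by size of change. Alternatives were the pseudocount, no filter on low values, scaling, capping, depth of cells, prior variance, minimum cells and leaving out each pool. Leaving out barcodes found in both wells was chosen after seeing the data, as were the depth minimum and single-pool removal for the smaller types.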

Additional observations from a re-analysis of the deposited data

Results flagged for a closer look

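The age change of Fosb differed between cell types. It was 1.20 (log2) larger in Ly6CLow cells than in microglia of the same pools (SE 0.200, limma adjusted p = 0.0108), where 1.66% of genes were called for that difference. Fosb rose with age over all Ly6CLow cells and fell in microglia. In cells of at least 2000 raw UMIs the difference was 0.31 (SE 0.218, limma adjusted p = 0.806).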

How the results depend on the processing

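Dusp1 with antibiotics in aged microglia, Fosb with age in microglia, and Junb, Fosb, Nr4a1 and Ier2 with age in ILCs were called in every alternative run. Counts of called members moved as follows, limma throughout. Calls over all genes moved too and are given only in part. The member counts therefore do not set the members apart from all genes. For age in control pools of microglia, the 233 calls over all genes became 145 with no filter. In microglia, age within antibiotic pools gave 1 member, 2 with a pseudocount of 0.5, capped values or cells of at least 2000 UMIs, 3 with the mean of log values and 0 with no filter on low values (leaving out pools 0 to 2). Age within control pools gave 2, but 0 with no filter, 4 with the mean of log values, and 1 with cells of 5000 to 10000 UMIs or no trend in the prior variance (leaving out pools 0 to 3). Age over both treatments gave 4, but 1 with no filter and 7 with the mean of log values (leaving out pools 3 to 4). Antibiotics over both ages gave 1 and 0 with no filter (leaving out pools 0 to 1).

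In Ly6CLow cells, age within antibiotic pools gave 0 members and 1 with values per 10000, capped values or a robust prior variance (leaving out pools 0 to 1). Age within control pools gave 1, but 2 with values per 10000 or a robust prior variance, and 0 with no filter, the mean of log values, no trend or either depth limit (leaving out pools 0 to 2). Over all genes the 65 calls there became 126 (robust), 36 (no filter), 311 (mean of log values), 14 (no trend) and 0 (either depth limit). Age over both treatments gave 1, but 2 per 10000 and 0 with either depth limit (leaving out pools 1 to 2). Fosb there reversed to -0.055 (control pools) and -0.030 (both treatments) in cells of at least 2000 UMIs and to -0.034 (control pools) in cells of 5000 to 10000 UMIs. Its difference from microglia, 1 member called, became 0 members with a value of 0.31. Pools of at least 5 cells gave 0 called members in CD8+ cells (antibiotics, young) and ILCs (age, control) against 1, and 1 in Ly6CHigh cells (age) against 0. Over all genes, 12 calls became 0 in that CD8+ comparison and 76 became 19 in that ILC comparison. Leaving out pools gave 0 to 3 in B cells (age, control), 0 to 1 in CD8+ (antibiotics, young and over ages; age, antibiotic), 0 to 2 in CD8+ (age), 2 to 5 in ILCs (age, antibiotic), 0 to 3 (age, control), 4 to 6 (age), 0 to 1 (antibiotics, young) and 0 to 1 in Ly6CHigh (age). Taken as the median over pools of each pool's median, r of the 36 member pairs moved from 0.484 to 0.426 in cells of 5000 to 10000 UMIs; the cause was not tested.

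Over all genes, Ly6CLow age calls of 636 became 3 at 2000 UMIs, 2 at 5000 to 10000, 173 with no trend and 1122 with the mean of log values; values per 10000 turned 229 higher and 407 lower into 300 and 181, moving the median of all genes from -0.162 to -0.0546. In microglia, 283 calls for antibiotics in aged mice became 105 (no filter), 439 (mean of log values) or 459 (2000 UMIs), and 473 over both ages became 209 (no filter) or 711 (2000 UMIs). No paired analysis was possible because the groups share no hashtag number within a well. Outside microglia and Ly6CLow cells, the smallest pools used held 10 to 17 cells of a type, which limits these values.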

Other observations

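Other early genes moved with age in ILCs, although these genes were picked after their values were seen. Of 37 tested, 9 were higher and 2 lower over both treatments. The NF-κB inhibitor gene Nfkbia (2.31), Nfkbiz (1.79) and the stress gene Gadd45b (2.62) rose on the log2 scale by limma, while Klf2 (-1.12) and Rhob (-0.96) fell. Fosl2, another AP-1 gene, rose by 1.33 (limma adjusted p = 0.000929). Over both treatments no cytokine, heat shock or upstream gene of the lists was called there, while in control pools alone Ccl3 fell (-1.56, limma adjusted p = 0.0429). The higher ILC marker sums and lower Ncr1 of aged pools stand beside these values, and their part was not tested.

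Some genes ran against the members from microglia to microglia, also picked after their values were seen. The lowest median r with the members' mean belonged to Rsrp1 (-0.367), an arginine and serine rich protein gene, and Gm42418 (-0.294). The mitochondrially encoded mt-Atp6 (-0.232), mt-Cytb (-0.215) and mt-Co3 (-0.213) followed.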
